A study of Mus musculus with 45 samples.

Results

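The 41 genes described here are mouse imprinted genes chosen from a fixed list, by name and not by their levels in these samples, and 40 of them were matched to 1 of the 54838 gene rows of the table. *Zrsr1* was not matched and is given no value. The question was which imprinted loci were on or silent in each line and whether this followed the parental line. RNA-seq was performed on polyA RNA of 15 *PyMT*+ mammary tumour cell lines of *Mus musculus*, grown in dishes, each in 3 technical repeats (45 libraries). All lines carry polyomavirus middle T antigen, which the MMTV promoter drives in the mammary epithelium. YEJG and YEJH are the 2 parental lines, from primary tumours of the mammary gland. YEJG-FP and YEJH-FP1 to YEJH-FP5 are the 6 lines from fat pad tumours, and YEJG-M1, YEJG-M2 and YEJH-M1 to YEJH-M5 are the 7 lines from the lung. Sample titles give lung metastases for YEJH-M3 and whole lung for the others. The paper describes its lung-derived lines as coming from micrometastases. Each derived line is named for its parental line, which gave 3 YEJG-derived and 10 YEJH-derived lines. Only 1 fat-pad line and 2 lung lines stand for YEJG, so a difference between origins rests on few YEJG lines.

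Imprinted genes are expressed mainly from the allele inherited from 1 parent, because DNA methylation set in the egg or in the sperm marks a control region nearby and is copied at each cell division. They lie in clusters in which a control region often acts on several genes, some of which produce long non-coding RNAs that silence their neighbours in cis. Several, such as *Igf2*, *H19*, *Dlk1* and *Meg3*, are abundant in the fetus and placenta and fall after birth. Read counts do not separate the alleles, so the values below are totals over both.

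Libraries held 9723860 to 16943900 reads on genes (38265130 to 45958820 per line over 3 repeats). Levels are given as normalised counts, which are reads divided by the TMM-scaled library size and set to the mean library of 14106516 reads. Of 10 mammary epithelial marker genes, 8 were on in every line, *Krt8* and *Epcam* among them, and *Krt5* and *Elf5* did not exceed 1.65 and 2.45 normalised counts. The summed level of this list was 53540 and 52590 in the lung lines YEJG-M1 and YEJG-M2, against 96240 to 152000 in the other 13 lines. Over 10 fibroblast genes the sum was 1089 and 1247 in these lung lines, 166.6 in YEJG-FP and 27.9 to 85.6 in the other lines, with *Pdgfra* and *Pdgfrb* making up most of it in the YEJG lung lines and *Lum*, *Thy1* and *Dpt* at 0 in all 15 lines. Summed leukocyte markers lay between 12.9 and 74.2, endothelial markers at or below 11.5 and adipocyte markers at or below 0.337, while 5 of 7 lung epithelial markers were silent and 1 was on in every line. The epithelial and fibroblast levels moved with the differences between origins described below, and their part in them was not tested. In bulk RNA, fewer expressing cells and less RNA in each cell cannot be told apart. The libraries fell into run A (22) and run B (23) by their library names, and both runs held libraries of both origins. Reads set aside for low alignment quality numbered at least 822828 in each run A library and 0 in each run B library. In YEJG-M1, 1 library had a library name of another line and was placed by its title.

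Promoter sequences are printed for members whose levels separated lines or moved together. RefSeq holds a window of 250 bases before to 50 bases after the start on GRCm38.p6 for 29 of the members. The window with the most CpG pairs, the dinucleotide that DNA methylation marks, is given 5′ to 3′ on the gene's strand, with each CpG in capitals.
*Mest* (chr6:30737800-30738099, + strand): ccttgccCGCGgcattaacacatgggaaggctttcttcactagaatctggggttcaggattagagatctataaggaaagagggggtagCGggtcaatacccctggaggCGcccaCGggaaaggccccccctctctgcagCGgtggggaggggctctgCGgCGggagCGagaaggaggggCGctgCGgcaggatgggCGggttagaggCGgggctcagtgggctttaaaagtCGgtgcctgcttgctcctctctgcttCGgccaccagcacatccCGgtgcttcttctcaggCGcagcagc
*Igf2r* (chr17:12769657-12769956, - strand): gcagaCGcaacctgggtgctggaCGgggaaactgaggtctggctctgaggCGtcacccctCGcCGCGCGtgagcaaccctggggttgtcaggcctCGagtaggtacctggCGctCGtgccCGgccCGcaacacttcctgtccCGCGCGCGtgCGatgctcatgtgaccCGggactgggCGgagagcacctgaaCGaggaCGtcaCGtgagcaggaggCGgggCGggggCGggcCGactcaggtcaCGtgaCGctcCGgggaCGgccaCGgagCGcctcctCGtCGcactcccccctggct
*Airn* (chr17:12741061-12741360, + strand): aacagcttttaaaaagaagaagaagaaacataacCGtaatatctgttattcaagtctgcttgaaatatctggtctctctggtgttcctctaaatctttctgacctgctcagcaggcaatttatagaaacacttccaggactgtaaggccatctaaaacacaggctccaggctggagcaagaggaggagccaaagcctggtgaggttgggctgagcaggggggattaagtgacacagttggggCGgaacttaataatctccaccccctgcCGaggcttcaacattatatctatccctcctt
*Phlda2* (chr7:143502475-143502774, - strand): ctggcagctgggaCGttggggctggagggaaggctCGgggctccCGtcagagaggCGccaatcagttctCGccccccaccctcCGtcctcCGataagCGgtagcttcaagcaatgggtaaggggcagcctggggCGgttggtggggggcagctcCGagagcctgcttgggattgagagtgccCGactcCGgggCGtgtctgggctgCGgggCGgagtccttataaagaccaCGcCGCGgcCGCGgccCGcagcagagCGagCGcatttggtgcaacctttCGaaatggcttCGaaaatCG
*Slc22a18* (chr7:143473539-143473838, + strand): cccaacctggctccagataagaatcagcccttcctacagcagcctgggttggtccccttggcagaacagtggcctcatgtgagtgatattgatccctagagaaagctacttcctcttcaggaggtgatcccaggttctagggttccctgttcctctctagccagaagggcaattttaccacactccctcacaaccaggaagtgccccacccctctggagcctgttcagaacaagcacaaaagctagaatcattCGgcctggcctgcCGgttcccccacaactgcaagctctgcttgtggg
*Peg3* (chr7:6730370-6730669, - strand): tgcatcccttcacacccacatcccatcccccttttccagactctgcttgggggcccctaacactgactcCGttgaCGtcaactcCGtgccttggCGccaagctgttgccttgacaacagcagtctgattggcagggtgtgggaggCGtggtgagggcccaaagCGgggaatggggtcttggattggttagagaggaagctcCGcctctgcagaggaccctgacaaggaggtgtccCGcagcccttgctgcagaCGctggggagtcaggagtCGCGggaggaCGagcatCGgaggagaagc
These windows held 17 CpG pairs for *Mest*, 34 for *Igf2r*, 3 for *Airn*, 26 for *Phlda2*, 2 for *Slc22a18* and 13 for *Peg3*, against a median of 7 over all 32851 windows of the table. In the richest window of each gene the median was 24 CpG pairs over 8 members that were on in all lines and 15 over 14 members that were silent in all lines, and the ranges overlapped (7 to 40 and 0 to 26). The motif TGCCGC, or GCGGCA on the other strand, is known to be bound by ZFP57, which protects methylation at imprinted control regions. It contains a CpG, and it occurred in 10 of 29 members (34.5%), in 11.6% of all windows and in 26.2% of the 10320 windows with at least 17 CpG pairs.

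A gene was called on in a line at 10 or more normalised counts in each repeat, silent at 3 or fewer reads over the 3 repeats together, and low otherwise. Of 40 imprinted genes, 12 (30%) were on in all 15 lines, 16 (40%) were silent in all 15, and 8 (20%) were on in some lines and not in others. Among the 30447 genes with a read in any library, these shares were 36%, 31.4% and 7.64%. Over all 54838 gene rows they were 20%, 61.9% and 4.24%. Some of the 40 imprinted genes had no read, so neither set is a like background for the shares on or silent in all lines. Genes on in some lines and silent in others numbered 5 of 40 (12.5%), against 1.58% of the genes with a read. They were *Mest*, *Peg10*, *Sgce*, *Ppp1r9a* and *Peg3*, of which all but *Ppp1r9a* are paternally expressed. The 12 genes on in every line were *Cd81*, *Commd1*, *Copg2*, *Gnas*, *Igf2r*, *Impact*, *Kcnq1ot1*, *Nespas*, *Peg13*, *Phlda2*, *Snrpn* and *Trappc9*. Of these, 5 are known for expression from the paternal allele and 7 for expression from the maternal allele in at least some tissues.

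The 16 genes silent in all lines included the whole *Dlk1*-*Meg3* locus of chromosome 12, with the growth regulator *Dlk1*, the retrotransposon-derived *Rtl1* and the non-coding RNAs *Meg3*, *Rian* and *Mirg*. *Igf2*, the fetal growth factor of chromosome 7, had 0 reads in all 45 libraries. Its neighbour *H19*, a non-coding RNA, reached at most 4 reads over the 3 repeats of a line, in YEJG-FP, and was silent in the other 14 lines. *Ndn* and *Magel2* of the Prader-Willi region had 1 read each in total, the zinc-finger gene *Plagl1* had 3 and the neuronal proteolipid gene *Nnat* had 4. *Zim1*, *Kcnk9* and *Nap1l5* had 0 reads, and *Usp29*, *Ascl2* and *Slc38a4* had at most 2 reads in a line. A count of 0 allows an expected count of up to 3 reads in a line at this depth, so expression below that could be missed. *Grb10*, an adaptor that restrains insulin receptor signalling, was low with 10 and 8 reads in the YEJG lung lines and had at most 4 reads in each of the other lines. *Kcnq1* had at most 6 reads in a line, and *Dcn*, which encodes a matrix proteoglycan of fibroblasts, stayed at or below 2.97 normalised counts.

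**Figure D1:**
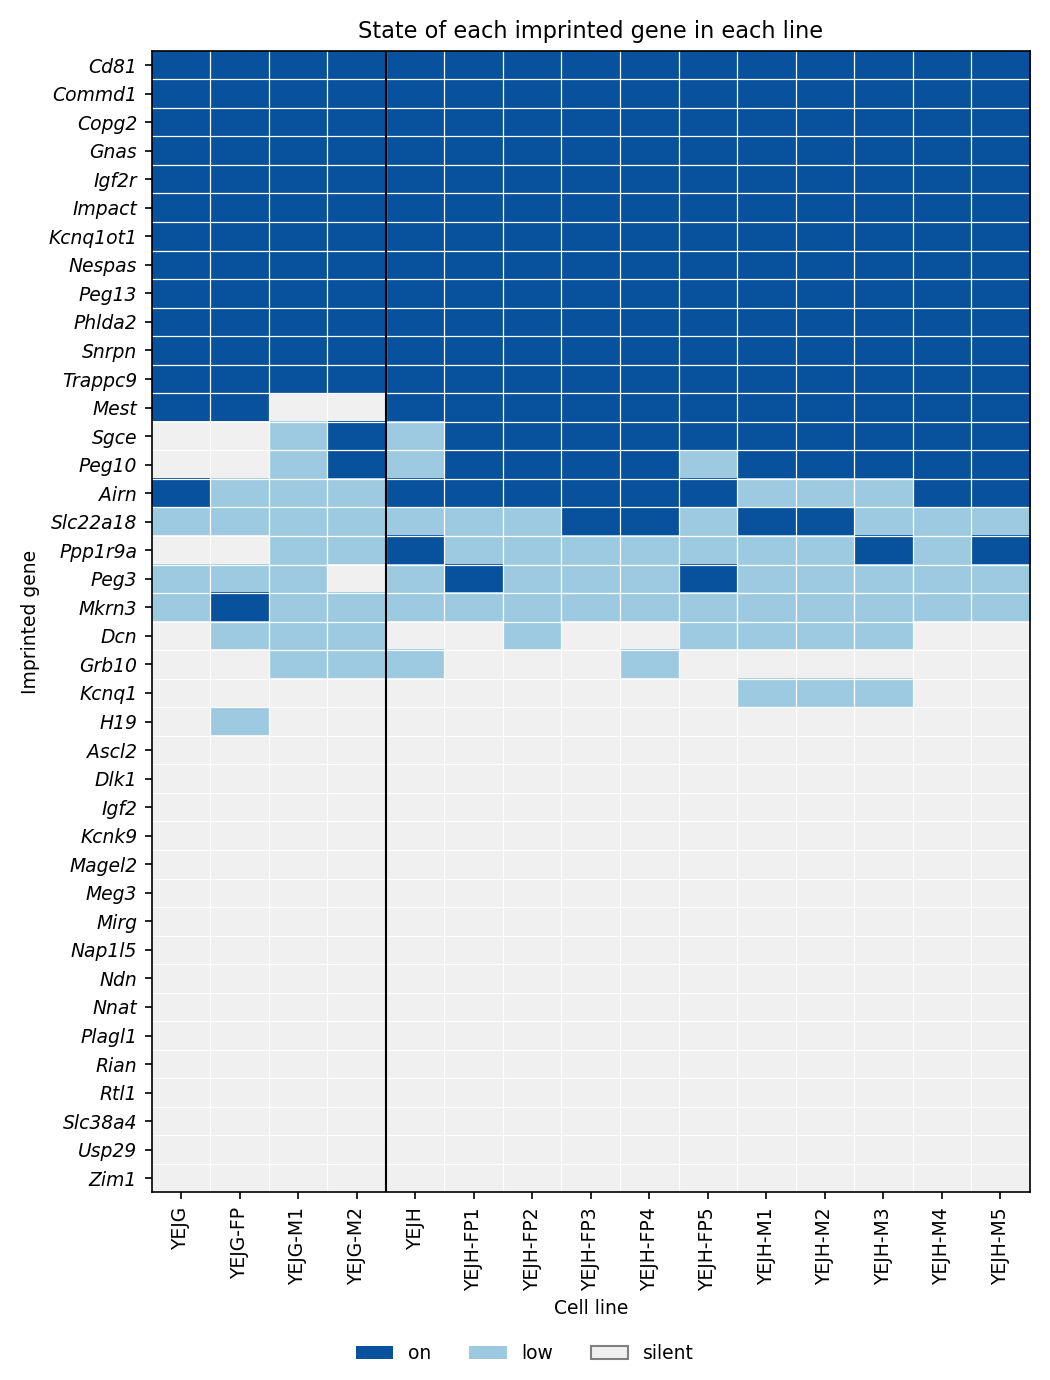
State of the 40 matched imprinted genes (rows) in the 15 lines (columns), with dark blue for on, light blue for low and pale grey for silent; the vertical line separates lines of YEJG origin (left) from lines of YEJH origin. The top 12 rows are on in every line and the lowest 16 rows are silent in every line, while *Mest*, *Sgce* and *Peg10* change state between lines.

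The number of imprinted genes on in a line ran from 12 in YEJG-M1 to 17 in 4 of the YEJH-derived lines. The states of derived lines matched those of their own parental line in 448 of 520 pairs of gene and line (86.2%) and those of the other parental line in 453 (87.1%). The parental lines shared a state in 36 of 40 genes. No test was applied, since the lines of 1 origin are not independent of each other. A change between silent and on relative to the parental line was seen for 3 genes, and only in the YEJG lung lines. *Mest* was on in YEJG and silent in YEJG-M1 and YEJG-M2, and *Peg10* and *Sgce* were silent in YEJG and on in YEJG-M2. Of all genes with a read, 0.841% went from silent to on in at least 1 derived line and 0.24% from on to silent.

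Between the 3 YEJG-derived and the 10 YEJH-derived lines, 20 of the 40 imprinted genes passed the expression filter and 8 of these (40%) differed at an adjusted p under 0.05 (edgeR's quasi-likelihood test on counts summed per line, with the site as covariate and Benjamini-Hochberg adjustment). Over all 15815 genes tested the share was 40.8%, with 19.2% higher and 21.6% lower in YEJG-derived lines, so that the share of imprinted genes called lay at the background. *Airn*, *Gnas*, *Igf2r*, *Mest*, *Phlda2*, *Ppp1r9a* and *Slc22a18* were lower in YEJG-derived lines and *Impact* was higher. The median log2 difference of the 20 genes was -0.42, against 0.0032 over all genes tested. For 5 of the 20 genes (*Commd1*, *Gnas*, *Impact*, *Phlda2* and *Slc22a18*) the line means of the origins did not overlap, as was the case for 24.2% of all genes tested. Without the 2 YEJG lung lines, which leaves YEJG-FP alone for its origin and assumes that it varies like the other lines, 3 genes were called (*Peg10*, *Phlda2* and *Sgce*). With library runs fitted apart, 7 genes were called in run A and 8 in run B.

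**Figure D2:**
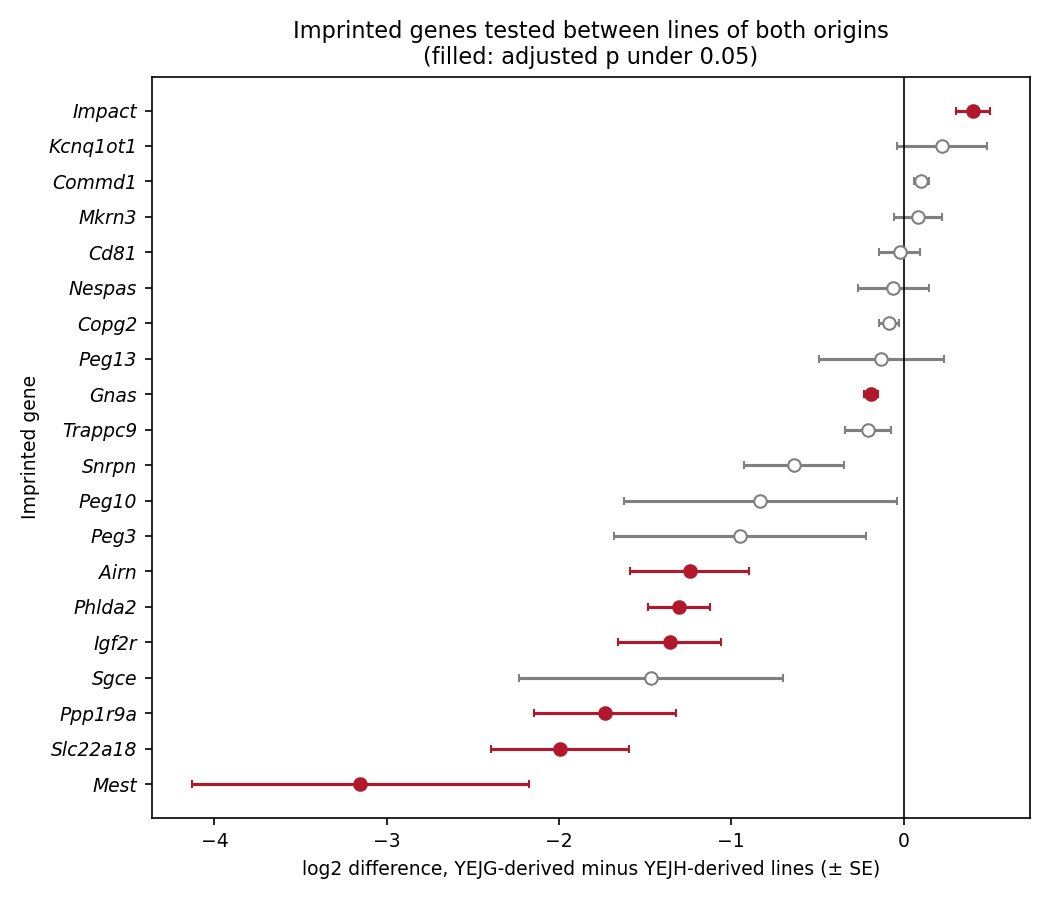
Log2 difference between YEJG-derived (n = 3) and YEJH-derived lines (n = 10) for the 20 imprinted genes tested, with points for edgeR's estimates, bars for their standard errors and filled points for the 8 genes called. *Mest* has the lowest estimate, at -3.15, and *Impact* is the only called gene above 0, at 0.40.

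Of the 8 genes called between origins, 3 (*Gnas*, *Ppp1r9a* and *Slc22a18*) had the same sign between YEJG and YEJH themselves, against 73.9% of the 6453 genes called across the table. The technical repeats of YEJG and YEJH did not overlap for these 3 genes, nor for *Mest*, which had the opposite sign. They overlapped for *Airn*, *Igf2r*, *Impact* and *Phlda2*, so the opposite signs of these genes lay within the technical spread. *Igf2r* was at 5247 ± 342 normalised counts in YEJG and 5133 ± 497.5 in YEJH (SD, n = 3 technical repeats). *Phlda2* was at 435 ± 36.9 and 350.6 ± 89.9. The parental lines gave 1 line per origin, so this difference between them was not tested.

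**Figure D3:**
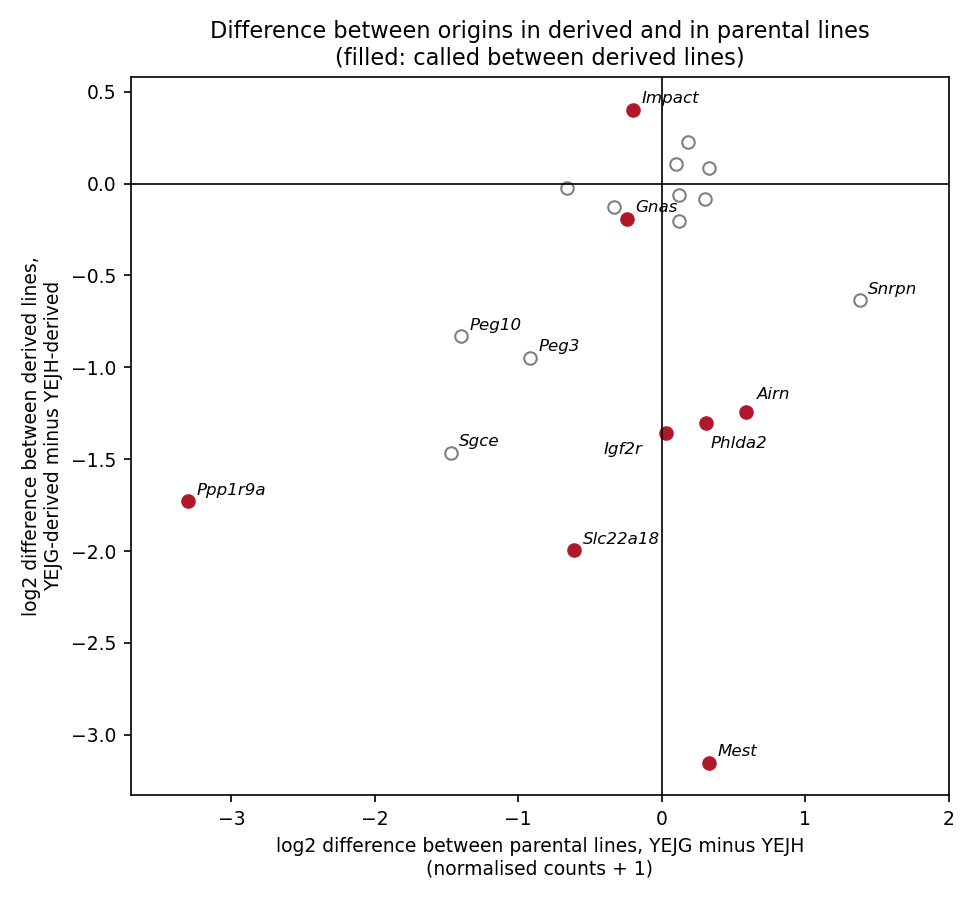
Difference between origins in derived lines (vertical axis, edgeR's log2 difference) against the difference between the parental lines (horizontal axis, log2 of normalised counts + 1) for the 20 imprinted genes tested, with filled points for the 8 genes called between derived lines. *Mest*, *Phlda2*, *Airn* and *Igf2r* lie at or right of 0 and below 0, and *Ppp1r9a* lies far to the left, at -3.30 between parental lines.

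*Peg10* and *Sgce* had the largest differences between derived and parental lines among the 20 imprinted genes tested, although neither passed the threshold in all lines together. Positions of genes below are those of the GENCODE annotation on GRCm39. *Peg10* (chr6:4747306-4760517), a paternally expressed gene derived from a retrotransposon and needed in the placenta, and *Sgce* (chr6:4672057-4747207), which encodes epsilon-sarcoglycan, start 98 bases apart on opposite strands around a shared control region. *Peg10* had 0 reads in all repeats of YEJG, 1 read over the 3 repeats of YEJG-FP and 5 over those of YEJH. In YEJG-M1 it was at 7.25, 8.27 and 2.78 normalised counts in the 3 repeats, and in YEJG-M2 at 73.9, 73.7 and 67.4. The lung lines of YEJG therefore differed from each other by more than their repeats did. In YEJH-derived fat-pad lines the means ran from 10.8 (YEJH-FP5) to 45.3 (YEJH-FP2) with a median of 22.3, and in YEJH-derived lung lines from 27.0 (YEJH-M1) to 67.6 (YEJH-M3) with a median of 33.3. All 10 were above YEJH, at 1.63 ± 0.791. In YEJH-M3 the value of 67.6 rested on repeat 2, at 126.4, whereas repeats 1 and 3 were at 43.1 and 33.5.

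*Sgce* was silent or low in YEJG, YEJG-FP, YEJG-M1 and YEJH, as was *Peg10*, which was also low in YEJH-FP5. It had 1 read in YEJG, 0 in YEJG-FP and 8 in YEJH over 3 repeats, while its mean was 4.49 ± 2.56 for YEJG-M1 and 46.1 ± 2.88 for YEJG-M2. The YEJH-derived lines lay between 15.2 (YEJH-FP5) and 58.9 (YEJH-M5). The log2 difference of derived from parental lines was 5.03 (SE 1.53, adjusted p = 0.0586) for *Peg10* and 4.06 (SE 1.31, adjusted p = 0.0715) for *Sgce* in edgeR's quasi-likelihood test, which did not pass the threshold. Within YEJH and its descendants alone it was 4.26 (SE 1.05, adjusted p = 0.0485) and 3.65 (SE 0.876, adjusted p = 0.0422), with a single parental line. Without YEJG-FP, in which both genes were silent, all lines gave 5.23 (adjusted p = 0.0133) and 4.23 (adjusted p = 0.0131). DESeq2 called both in the full set (adjusted p = 0.000397 and 0.00165). With YEJG left out, neither was called in edgeR's test (adjusted p = 0.437 and 0.447), nor with YEJH left out, where the values were 9.30 (adjusted p = 0.11) and 5.37 (adjusted p = 0.169). Between origins neither was called (-0.83 and -1.46), but without YEJG-M2 both were, at -3.52 (adjusted p = 0.00312) and -4.00 (adjusted p = 0.00158) in edgeR's test.

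**Figure D4:**
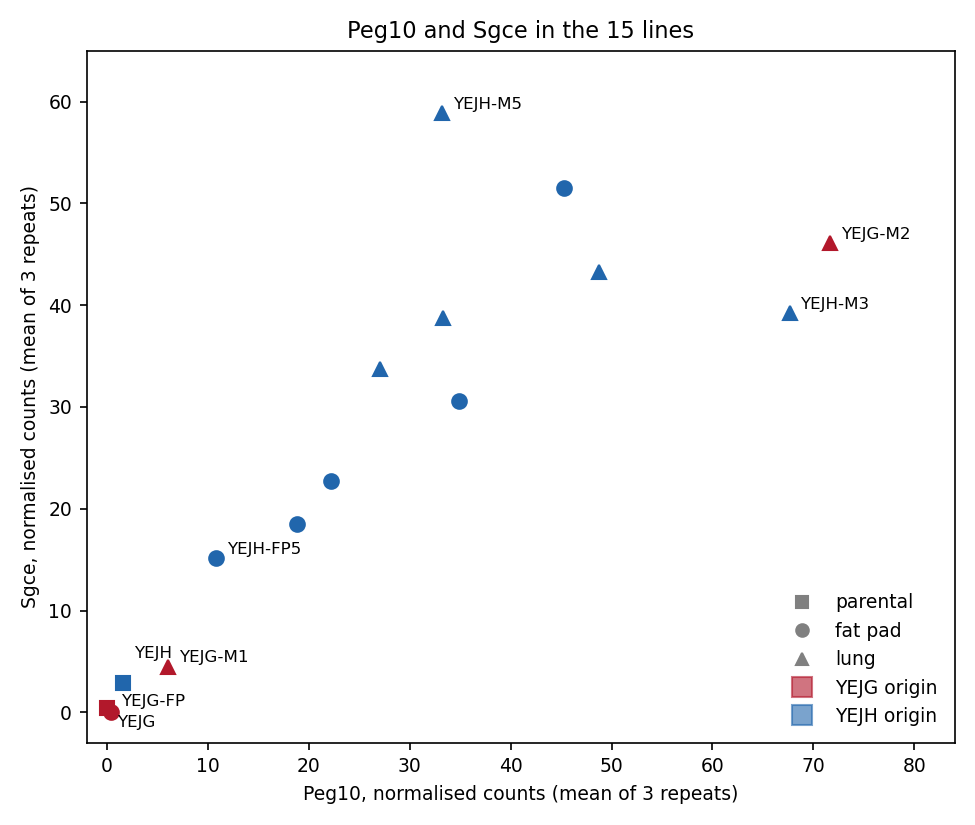
Mean normalised counts of *Peg10* (horizontal axis) and *Sgce* (vertical axis) in each of the 15 lines, in red for YEJG origin and blue for YEJH origin, with squares for parental, circles for fat-pad and triangles for lung lines. Both parental lines, YEJG-FP and YEJG-M1 lie near the origin of the plot, at or below 6.10 on the horizontal and 4.49 on the vertical axis, and all YEJH-derived lines lie at or above 10.8 and 15.2.

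Across lines, the log2 levels of *Peg10* and *Sgce* had a Pearson r of 0.812 over the 10 YEJH-derived lines, against a median of 0.18 over 10979 pairs of neighbouring genes within 100 kb. Other pairs of 1 locus did not all move together. Over the same lines, r was 0.761 for *Sgce* and *Ppp1r9a*, 0.759 for *Mest* and *Copg2* and 0.556 for *Phlda2* and *Cd81*. It was 0.532 for *Slc22a18* and *Phlda2*, 0.389 for *Peg13* and *Trappc9* and -0.0984 for *Gnas* and *Nespas*. For *Kcnq1ot1* it was -0.691 with *Phlda2* and -0.807 with *Cd81*. These lines share their origin, and no p was computed. *Ppp1r9a* (chr6:4902745-5165667), the gene of the neuronal scaffold neurabin and maternally expressed in some tissues, lies further along the same cluster. It had 2 reads in YEJG and 3 in YEJG-FP, and was at 4.50 ± 2.03 and 6.27 ± 4.94 in the lung lines YEJG-M1 and YEJG-M2. The parental line YEJH was at 16 ± 2.34, and its derived lines lay between 3.63 (YEJH-FP3) and 25.2 (YEJH-M5). Between origins the log2 difference was -1.73 (SE 0.412, adjusted p = 0.00476, edgeR), a direction shared by the parental lines. The YEJH-derived fat-pad lines spanned 3.63 to 8.52 and the lung lines 7.19 to 25.2, and the difference between sites did not pass the threshold (1.47, SE 0.315, adjusted p = 0.243, edgeR), whereas DESeq2 called it.

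*Mest* separated the YEJG lung lines from all other lines. *Mest* (chr6:30723546-30752058), a paternally expressed gene of the mesoderm that encodes a hydrolase-like protein, was at 102.8, 106.5 and 101.5 normalised counts in YEJG and at 37.4, 34.2 and 37.8 in YEJG-FP. In YEJG-M1 and in YEJG-M2, 1 read was counted over 3 repeats, against 277 in YEJG. These lung lines were 310.3-fold and 331.3-fold below the parental line, with exact 95% intervals of 55.2 to 12302 and 59.0 to 13131 that cover counting error only. In contrast, YEJH was at 82.3 ± 13.7, and the lung lines derived from it ranged from 34.6 ± 8.24 in YEJH-M5 to 218 ± 35.4 in YEJH-M1, while its fat-pad lines were at 61.6 to 88.9. The log2 difference between origins was -3.15 (SE 0.980, adjusted p = 0.0207, edgeR), which lost its call without YEJG-M1 (-2.41, adjusted p = 0.0781) or without YEJG-M2 (-2.39, adjusted p = 0.0758). Against the fat-pad lines of the same origin, the change in lung lines differed between origins by -7.46 on the log2 scale (SE 1.27, adjusted p = 0.00286, edgeR's interaction term). This is a fitted value against a group with 1 read per line and depends on the prior count.

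*Copg2*, a coat protein gene that overlaps *Mest* on the opposite strand and shares exonic bases with it, stayed on where *Mest* was silent. It was at 625 ± 28.4 and 726 ± 23.3 normalised counts in the YEJG lung lines, within the range of the other lines (623 to 875). The counting is not stated to use strand, and the reads of both genes in the shared bases cannot be told apart.

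*Igf2r*, which encodes the receptor that clears IGF2, was lower in the YEJG lung lines than in any other line. *Igf2r* (chr17:12901293-12988614) had 1425, 1446 and 1368 normalised counts in the repeats of YEJG-M1 and 741, 769 and 625 in those of YEJG-M2, against 2918 ± 135 in YEJG-FP and 5247 ± 342 in YEJG. YEJH-derived lines ranged from 2382 (YEJH-M2) to 5405 (YEJH-M5) with the fat-pad lines between 4045 and 4871. The log2 difference between origins was -1.36 (SE 0.298, adjusted p = 0.00292, edgeR), and -0.64 (adjusted p = 0.237) without both YEJG lung lines. *Airn* (chr17:12960198-13079299), the paternal antisense RNA that begins inside *Igf2r* and silences it on that chromosome, was lower in YEJG-derived lines as well, with a log2 difference of -1.24 (SE 0.345, adjusted p = 0.0116, edgeR).

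*Airn* was at 3.83 ± 1.84 in YEJG-M2, 9.56 ± 2.38 in YEJG-M1 and 8.71 ± 3.21 in YEJG-FP, against 21.2 ± 4.07 in YEJG. In YEJH-derived lines it ran from 7.21 (YEJH-M2) to 24.5 (YEJH-M3), where repeat 2 alone was at 46.8 and the others at 7.73 and 19. The call was lost without YEJG-M2 (adjusted p = 0.0667), in run A alone (adjusted p = 0.0624) and among lung lines alone (adjusted p = 0.0987). Lines low in *Igf2r* were low in *Airn*, with a Pearson r of 0.957 over the 10 YEJH-derived lines. The genes overlap in span, share no exon bases in the annotation, and lie on opposite strands. *Airn* begins within an intron of *Igf2r*, and strand use in counting is not given. Reads of unspliced *Igf2r* RNA could therefore be counted as *Airn*, which was not tested. The means over the YEJH-derived lines were 4210 for *Igf2r* and 17.39 for *Airn*.

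**Figure D5:**
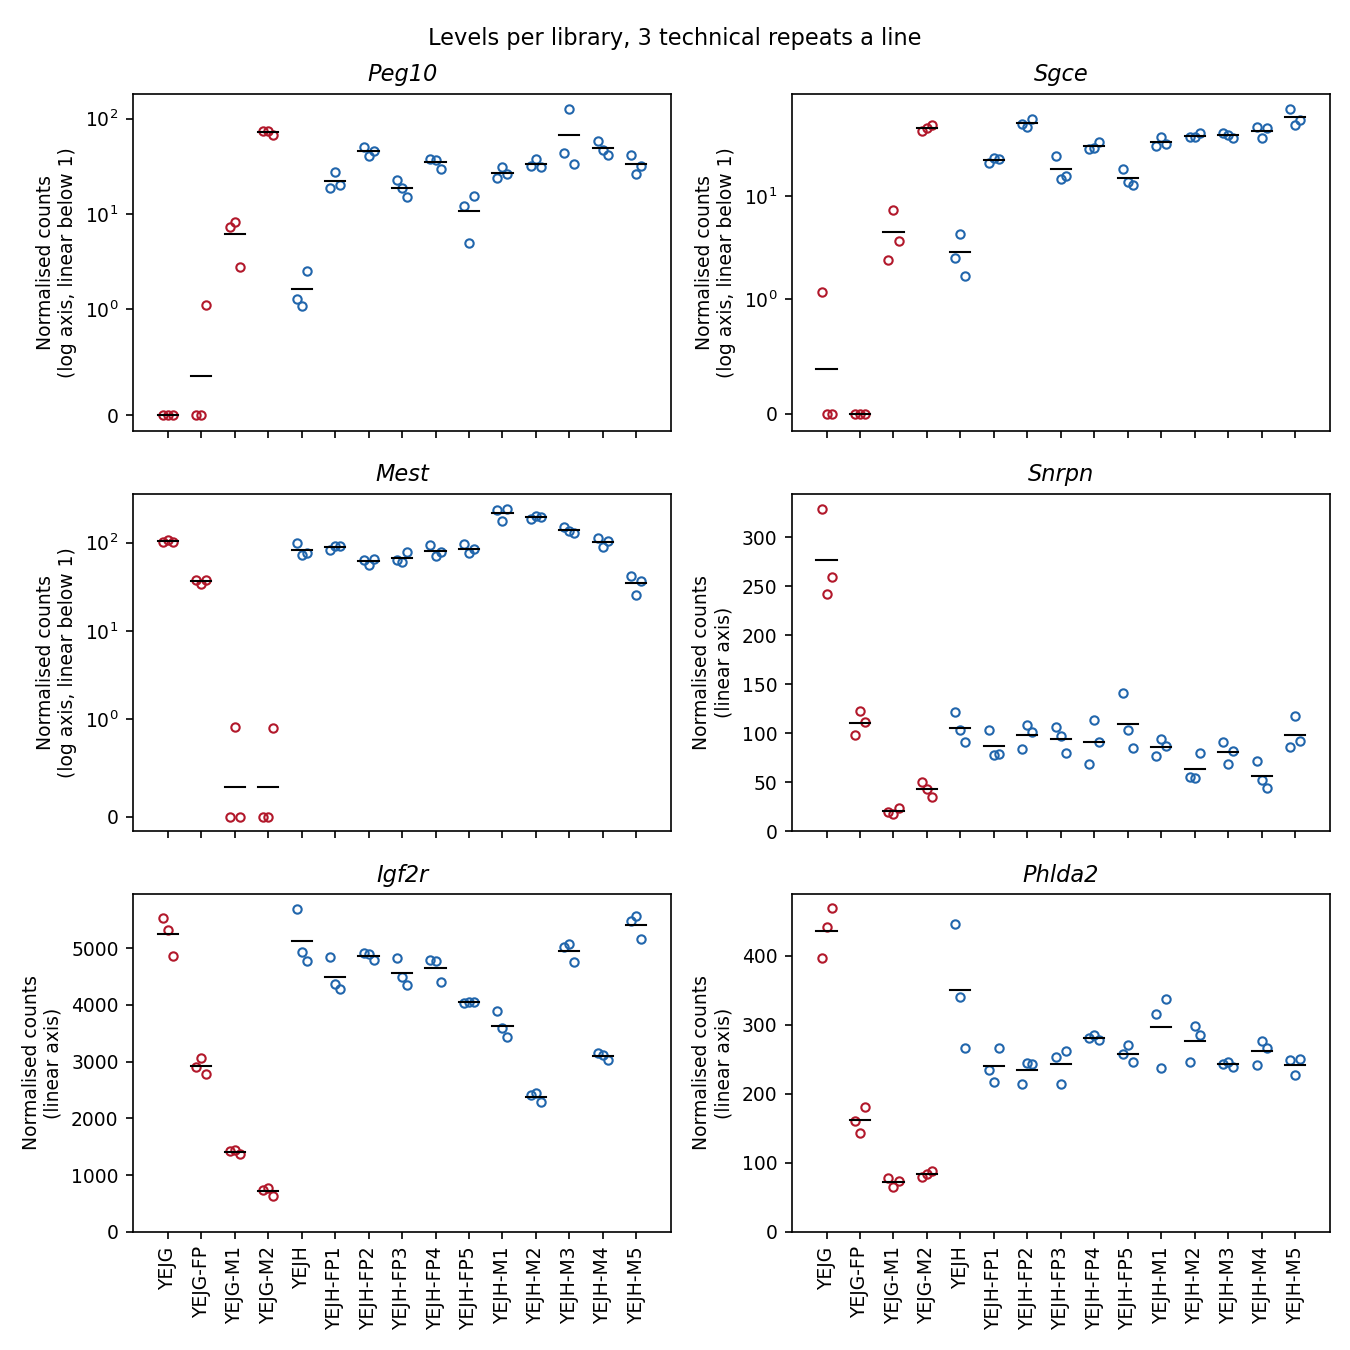
Normalised counts of 6 imprinted genes in each library, grouped by line, with open circles for the 3 technical repeats, black bars for their mean, red for YEJG origin and blue for YEJH origin; *Peg10*, *Sgce* and *Mest* are on a log axis that is linear below 1, and *Snrpn*, *Igf2r* and *Phlda2* on a linear axis from 0. *Mest* has 0 or 1 read per library in YEJG-M1 and YEJG-M2, in which *Snrpn*, *Igf2r* and *Phlda2* are also lower than in the other lines.

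On distal chromosome 7, *Phlda2* and *Slc22a18* were lower in YEJG-derived lines. *Phlda2* (chr7:143055282-143056887), a maternally expressed pleckstrin-homology gene that restrains placental growth, was at 161.5 ± 19.1 in YEJG-FP, 71.9 ± 6.80 in YEJG-M1 and 83.9 ± 4.53 in YEJG-M2. YEJH-derived lines lay in a narrow range, from 234 to 296, and did not overlap with these. The log2 difference between origins was -1.31 (SE 0.181, adjusted p = 0.000136, edgeR), and it passed the threshold under all 29 alternatives run, with an adjusted p of at most 0.0066. YEJG itself was at 435 ± 36.9, and *Phlda2* was also the 1 imprinted gene called between derived and parental lines (-1.29, SE 0.286, adjusted p = 0.0159, edgeR). Without YEJG this was -0.40 (adjusted p = 0.65), and within YEJH and its descendants -0.40 (adjusted p = 0.0788).

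*Slc22a18* (chr7:143027466-143053072) is an organic cation transporter gene that ends 2209 bases from the end of *Phlda2*. It was at 3.76, 2.04 and 1.497 normalised counts in YEJG-FP, YEJG-M1 and YEJG-M2. Its state was low in 11 lines, with all YEJG-derived and both parental lines among them, and on in 4 YEJH-derived lines. The YEJH-derived lines were at 4.60 to 14.3 (log2 difference -1.996, SE 0.4, adjusted p = 0.00161, edgeR). *Kcnq1ot1*, the paternal non-coding RNA that silences this cluster, was on throughout, at 186 (YEJH-M1) to 596 (YEJH-M3), and was not called between origins (0.23, SE 0.261, adjusted p = 0.525). In YEJH-M3, repeat 2 was at 1217 against 226.3 and 344.8 in the other repeats. *Cd81*, a tetraspanin gene at the edge of the cluster, was at 3199 to 5540 in all lines and did not differ between origins beyond the spread (-0.02, SE 0.119). *Kcnq1ot1* lies within *Kcnq1* on the opposite strand, and the exons of both overlap.

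*Snrpn*, which encodes a splicing protein of the Prader-Willi region, was on in all lines, from 20.3 to 277 normalised counts. It was at 277 ± 45.8 normalised counts in YEJG and 105.6 ± 15.5 in YEJH. The lung lines YEJG-M1 (20.3 ± 3.41) and YEJG-M2 (42.9 ± 7.23) were below YEJG-FP (110.6 ± 12.3), and below all YEJH-derived lines (56.3 to 109.6). The difference between origins was not called (-0.64, SE 0.288, adjusted p = 0.0962, edgeR) and rested on single lines. It was -1.29 (adjusted p = 0.00192) without YEJG-FP, -0.26 (adjusted p = 0.455) without YEJG-M1 and 0.20 (adjusted p = 0.625) without both YEJG lung lines. However, the change from fat-pad to lung lines differed between origins (-1.49, SE 0.401, adjusted p = 0.028, edgeR). Without YEJG-M1 this was -1.06 (adjusted p = 0.0879), and without repeat 3 of every line -1.38 (adjusted p = 0.0824). *Snrpn* counts were also lower in run B than in run A within lines (-0.28, SE 0.064, adjusted p = 0.000908), and in run B alone the interaction was -1.43 (adjusted p = 0.0695). *Mkrn3*, a zinc-finger gene of the same region, stayed between 7.15 and 12.6 and met the level for on in YEJG-FP alone (log2 difference between origins 0.09, SE 0.139, adjusted p = 0.714, edgeR).

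*Peg3*, a paternally expressed zinc-finger gene, was on in YEJH-FP1 and YEJH-FP5 (19.99 ± 5.28 and 16.8 ± 3.24), silent in YEJG-M2 with 0 reads, and low in the other 12 lines. *Usp29* starts 108 bases from *Peg3* on the other strand, and the RefSeq windows of both share 263 bases, but it was silent in all lines. In fat-pad lines *Peg3* was at 5.23 to 19.99 and in lung lines at 0 to 12.9. Neither origin (-0.95, SE 0.731, adjusted p = 0.329) nor site (-1.52, SE 0.571, adjusted p = 0.531) was called for *Peg3* in edgeR's test.

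*Gnas*, which encodes the stimulatory G protein alpha subunit, was at 7557 to 7878 in YEJG-derived and 8148 to 9212 in YEJH-derived lines (log2 difference -0.19, SE 0.041, adjusted p = 0.00245, edgeR), and YEJG (7898) and YEJH (9322) differed in the same direction. *Impact*, a translational regulator, was higher in YEJG-derived lines (435, 624 and 474 against 339 to 418, log2 difference 0.40, SE 0.098, adjusted p = 0.00557, edgeR). *Commd1*, a copper transport gene, did not overlap between origins (597 to 603 against 519 to 591) and missed the threshold (0.10, SE 0.041, adjusted p = 0.0608, edgeR). Its counts were lower in run B than in run A within lines (-0.23, adjusted p = 1.58e-07, edgeR). Between runs, 2 of 20 imprinted genes (*Commd1* and *Snrpn*) were called, against 2286 of all 14339 genes tested. *Nespas*, antisense at the *Gnas* locus, was at 32.2 to 76.3 with no call between origins, and shares exonic bases with *Gnas*. *Peg13*, a non-coding RNA inside *Trappc9* that shares exonic bases with it on the same strand, ran from 76.5 (YEJG-FP) to 290 (YEJH-M1), and *Trappc9* from 338 to 538.

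Between lung (7) and fat-pad (6) lines, 0 of the 20 imprinted genes were called in edgeR's test with the origin as covariate, against 0.019% (3 genes) of all genes tested. At an unadjusted p under 0.05 in edgeR's test there were 4 (*Igf2r*, *Peg3*, *Ppp1r9a* and *Snrpn*). The share of all genes at this threshold is not given here, and the 0.019% is no background for it. DESeq2 called 1 (*Ppp1r9a*), and limma with libraries kept apart called 5, also without a share over all genes. In the comparison of derived with parental lines 1 of 20 imprinted genes (5%) was called, against 7.77% of 16361 genes. For the interaction of site and origin it was 3 of 21 (14.3%; *Mest*, *Phlda2* and *Snrpn*, all lower in YEJG lung lines), against 13.3% of 17042 genes. YEJG holds a single fat-pad line in this contrast.

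Lines of YEJH origin differed among themselves. With the 30 libraries kept apart and the run as covariate, 11 of 20 imprinted genes (55%) differed among the 10 YEJH-derived lines (edgeR's quasi-likelihood test, Benjamini-Hochberg adjusted p under 0.05), against 23.9% of 13876 genes tested. The genes were *Cd81*, *Igf2r*, *Kcnq1ot1*, *Mest*, *Peg10*, *Peg13*, *Peg3*, *Ppp1r9a*, *Sgce*, *Snrpn* and *Trappc9*. These p-values measure the spread between technical repeats only. *Igf2r* had the smallest (adjusted p = 1.9e-13), followed by *Mest* (adjusted p = 2.54e-12) and *Sgce* (adjusted p = 1.39e-08). Without repeat 2 of each line the count was 8, and without repeat 2 of YEJH-M3 alone it was 13. For *Mest* and *Igf2r* the lung lines covered a wider range than the fat-pad lines, at 34.6 to 218 against 61.6 to 88.9, and 2382 to 5405 against 4045 to 4871. No test of that difference in spread was made.

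Of 24 genes with a role in keeping imprints, 19 were tested between origins and 7 were called, 5 higher and 2 lower in YEJG-derived lines. This share of 36.8% lay near the 40.8% of all genes called. The largest was *Setdb1*, a histone H3K9 methyltransferase (0.285, SE 0.029, adjusted p = 2.1e-05, edgeR), followed by *Hells* (0.24), *Arid4b* (-0.23), *Ezh2* (-0.22) and *Mbd3* (0.13). Chosen after their values were seen, 6 more genes of these lists are given, with levels only except for *Dnmt1*. *Dnmt1*, which copies DNA methylation at replication, was at 6677 to 8027 normalised counts in all lines, and the protein that directs it, *Uhrf1*, at 4717 to 6071. *Dnmt1* was among the 7 called genes, slightly higher in YEJG-derived lines (0.128, SE 0.042, adjusted p = 0.026, edgeR). Its line means did not overlap between origins. *Zfp57* did not exceed 9.53, and *Dppa3* and *Ctcfl* had no reads. Of 30 further imprinted genes, 12 were tested between origins and 7 were called, 2 higher and 5 lower (58.3%, against 40.8% of all genes). *Pon2* and *Pon3*, which lie in the *Peg10* cluster, moved in opposite directions (-0.49, SE 0.054, and 0.86, SE 0.137), followed by *Blcap* (-0.45), *Sfmbt2* (0.435) and *H13* (-0.31). Across the states, 10 of these 30 genes were on in all lines, 16 were silent in all lines and 2 were on in some lines, and 0 were on in some and silent in others. *Cdkn1c*, a cell cycle inhibitor of the *Kcnq1ot1* cluster, had 0 reads.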

How the data were processed

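RNA-seq libraries were made from polyA RNA of 15 cell lines (45 libraries) and sequenced by the authors. The deposited values are raw read counts per gene, not normalised. The submitters' processing notes name FastQC, HISAT2, SAMtools 1.2, HTSeq and the human build GRCh38, although the gene identifiers are those of mouse, and the build used for counting could not be settled. Strand use in counting is not given in the sources used here. Counter classes that name no gene took 31.6 to 43.3% of reads and were left out. Gene names and positions came from GENCODE M39 (GRCm39), which matched 50764 of 54838 rows (92.6%).

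Counts were summed over the 3 technical repeats of a line, since lines and not repeats were compared, and tested with edgeR 4.0.16 (R 4.3.3): TMM normalisation, filterByExpr, glmQLFit and glmQLFTest, with Benjamini-Hochberg adjustment over all genes tested and a threshold of 0.05. Derived lines were compared by origin with site as covariate, by site with origin as covariate, and with the parental lines. The paper describes independent lines from several mice, with lung lines from micrometastases that formed after the primary tumour was resected. Labels do not say which lines of 1 origin came from separate animals and which from the same, so p-values measure the spread between these lines. Differences among YEJH-derived lines were tested on single libraries with library run as covariate. DESeq2 1.42.0, limma 3.58.1, other filters and scalings, each run alone and each line or repeat left out were tried as alternatives. The procedures were tested on simulated data. Same-numbered lines and repeats did not deviate together (mean r -0.031 and -0.000363) and were not paired. Every imprinted gene was accounted for. Values were given for those on in at least 1 line, and full statistics for those called between origins or on in some lines. From each further list at most 5 called genes with the largest difference between origins were given, and *Dnmt1* besides. The genes, lists and tests were chosen with earlier results of these data known.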

Additional observations from a re-analysis of the deposited data

Results flagged for a closer look

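For 3 imprinted genes the difference between lung and fat-pad lines itself differed between origins, in edgeR's quasi-likelihood test of the interaction term with Benjamini-Hochberg adjustment. For *Mest* it was lower in YEJG-derived than in YEJH-derived lines by a log2 value of -7.46 (adjusted p = 0.00286), with 1 read in each YEJG lung line. For *Snrpn* the value was -1.49 (adjusted p = 0.028), and for *Phlda2* it was -1.10 (adjusted p = 0.00161). Each rests on a single YEJG fat-pad line, and the mammary epithelial and fibroblast marker levels of the YEJG lung lines differed from those of the other lines as well. Their part in these differences was not tested.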

How the results depend on the processing

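No difference that was called reversed its direction under the alternatives run. Some of those not called did. For example, *Snrpn* between origins went from -0.64 to 0.20 (edgeR) without both YEJG lung lines. *Mest* between derived and parental lines went from -1.70 to 0.40 without YEJG. The interaction of site and origin for *Kcnq1ot1* went from -0.168 to 0.07 without YEJH-M3 and to 0.162 without repeat 2 of every line. The call of 8 imprinted genes between origins ranged from 7 to 10 when single lines or repeats were left out, and was 3 without both YEJG lung lines, a setting chosen after seeing the data. Between sites the count of 0 became 1 with DESeq2, 5 in limma on single libraries, 4 when the repeat number was added as replicate block and 5 when the library run was added. Between derived and parental lines the count of 1 became 4 with DESeq2, 6 in each of the 3 limma fits (the replicate block included), 0 without origin as covariate and 2 within YEJH and its descendants, also chosen after seeing the data. Leaving out single lines or repeats gave 0 (without YEJG) to 6 (without YEJH), with 5 without YEJG-FP, 2 without YEJG-M1 and 3 without YEJG-M2. For the interaction the count of 3 became 5 with DESeq2, and 2 to 6 with single lines or repeats left out (6 without YEJG-M1). The line number as replicate block gave 0 calls between sites within YEJH. With the repeat number as replicate block, 11 genes were called between origins and 13 among YEJH-derived lines. The numbers of genes on in all lines (11 to 12), silent in all lines (16 to 20) and on in some (6 to 8) stayed within 1.5 times their values under the other thresholds, the other scaling and each repeat left out. Where a count moved, the cause was not tested. The share of all genes called under each alternative is not given here. These counts therefore do not separate a change in imprinted genes from a test that called more or fewer genes throughout. At this depth, levels expected to give fewer than 3 reads per line could be missed.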
